A study of Mus musculus with 75 samples.

Results

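The nuclear genome of the mouse was the variable followed here in inguinal white adipose tissue (iWAT), a subcutaneous fat depot, from animals kept on chow. The 16 chow iWAT libraries, of 75 libraries in the series, were taken as 8 with a C57 nucleus and 8 with a C3H nucleus. The C57 nucleus group joined 4 wild-type C57BL6/J libraries (C57n:C57mt) and 4 libraries of the mitochondrial-nuclear exchange (MNX) line C57n:C3Hmt. The C3H nucleus group joined 4 wild-type C3H/HeN libraries (C3Hn:C3Hmt) and 4 of the MNX line C3Hn:C57mt. Each side therefore held both mitochondrial genomes in equal number, and the contrast was the mean of the 2 C57 nucleus groups minus the mean of the 2 C3H nucleus groups. All animals stayed on chow past the age of 6 weeks, when others changed to a high-fat diet (HFD), and tissue was taken at 12 to 13 weeks. The sex of the animals, and whether the 4 libraries of a group came from separate litters, were not given in the labels, so the p-values measure the spread between these libraries.

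An MNX mouse carries the nuclear chromosomes of one inbred strain and the mitochondrial DNA (mtDNA) of another. The mtDNA encodes a small set of respiratory chain subunits, ribosomal RNAs and transfer RNAs, and the nucleus encodes every other gene, including the remaining subunits of the respiratory chain. Inguinal fat stores triglyceride, can take on a thermogenic, beige character, and surrounds a lymph node, so a dissected pad holds adipocytes, vessels, fibroblasts, macrophages and, depending on the cut, lymph node and neighbouring skeletal muscle. In such bulk tissue, fewer cells of a type and less RNA per cell cannot be told apart.

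Values are gene-level counts scaled to library size (CPM), and fold changes are on the log2 scale, positive where the C57 nucleus was higher. A gene was called when its adjusted p (edgeR quasi-likelihood test, Benjamini-Hochberg over all genes tested) was under 0.05. The 16 libraries held between 21.2 M and 26.3 M counts. All 8 C3H nucleus libraries were sequenced in lane 3 and all 8 C57 nucleus libraries in lane 4, so lane and nucleus cannot be told apart in this set. The reads were aligned to mm9, a C57BL/6J genome, and base differences from it numbered 4.58 to 4.75 per 1000 bases with the C3H nucleus and 2.71 to 2.88 with the C57 nucleus. The part of read mapping in single genes was not tested. Adipocyte identity genes summed to between 31420 and 50580 CPM with the C3H nucleus and to between 25150 and 40570 with the C57 nucleus. Fat depots share these genes, so their sums check for fat and not for the inguinal site.

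RNA of other tissues varied more between libraries than between nuclei. Fast skeletal muscle genes summed to over 4000 CPM in 4 libraries, at 22950 in C3Hn:C3Hmt replicate 1, 21850 in C3Hn:C57mt replicate 2, 4708 in C57n:C3Hmt replicate 1 and 4143 in C57n:C57mt replicate 2. Lymphocyte and lymph node genes summed to under 60 CPM in 5 libraries, which were 3 of the C3H nucleus and 2 of the C57 nucleus. In the remaining libraries those sums were 937 to 1661 CPM with the C3H nucleus and 1161 to 2755 CPM with the C57 nucleus. Erythroid genes, of red blood cells, summed to 40690 CPM in C57n:C3Hmt replicate 3 and to at most 8533 CPM in any other library. The library C57n:C3Hmt replicate 1 had the lowest median correlation with the other libraries of its nucleus, 0.9208. C57n:C57mt replicate 2 came next at 0.9289, and the remaining C57 nucleus libraries lay at 0.9748 to 0.9843. Both low libraries were among the muscle-rich and the lymphocyte-poor. The C3H nucleus libraries lay at 0.949 to 0.9769. Results that move when C57n:C3Hmt replicate 1 is left out are given with and without it.

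**Figure D1:**
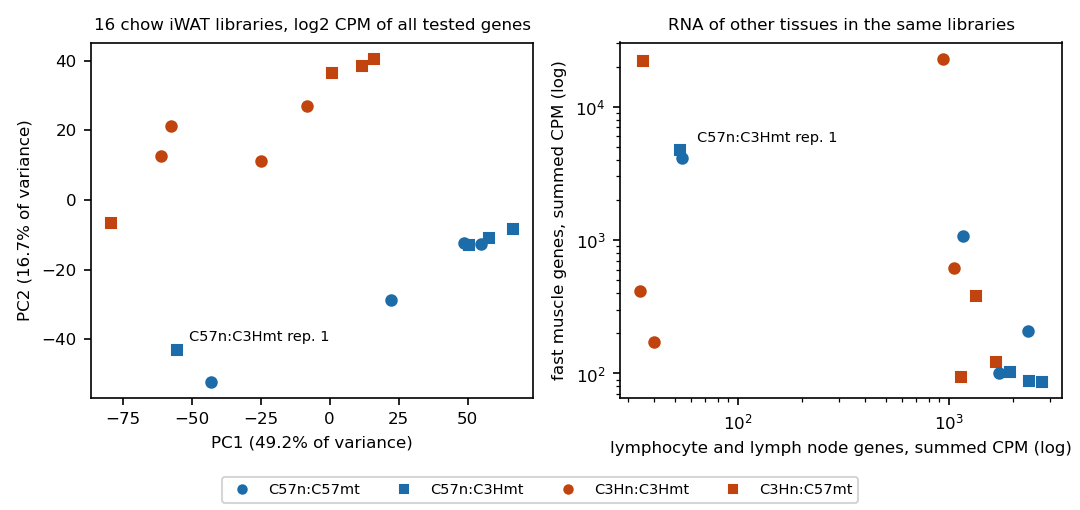
Left, the 16 chow iWAT libraries on the first 2 principal components of log2 CPM (49.2% and 16.7% of the variance); right, the summed CPM of lymphocyte and lymph node genes (x axis, log) against that of fast muscle genes (y axis, log). Blue is the C57 nucleus and orange the C3H nucleus, circles are wild types and squares MNX lines; 5 libraries sit under 60 CPM of lymphocyte genes and 4 above 4000 CPM of fast muscle genes, with both nuclei in each set.

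A large part of the iWAT transcriptome differed between the nuclear groups. Of 16153 genes tested, 2979 (18.4%) were called, with 1439 (8.91%) higher with the C57 nucleus and 1540 (9.53%) higher with the C3H nucleus. The median log2 fold change over all tested genes was 0.0148. A change of at least 2-fold was seen in 941 called genes (5.83%), of which 494 were higher with the C57 nucleus and 447 with the C3H nucleus. In 737 genes (4.56%) the 8 libraries of one nucleus all lay above the 8 of the other, 352 of them with the C57 nucleus above, and 731 of the 737 were called. The count was sensitive to the libraries named above. It was 5139 without C57n:C3Hmt replicate 1 and 3436 without C57n:C57mt replicate 2. Without the 4 muscle-rich libraries it was 6043, and without the 5 lymphocyte-poor libraries 4743. The last 2 were alternatives chosen after seeing the data. Of the 5139, 2316 were higher with the C57 nucleus and 2823 with the C3H nucleus, so list counts from that fit stand beside more calls in general.

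No gene's nuclear effect was called as different between the mitochondrial genomes. Between the groups that carried C57 mtDNA, 912 genes (5.65%) were called, and between those that carried C3H mtDNA, 1384 (8.57%). These comparisons share no library, but both came from 1 fit and both set lane 4 against lane 3. Lane and nucleus therefore cannot be told apart in either. Called in both were 646 genes, 70.83% of the first list and 46.68% of the second, with 0 in opposite directions. Leaving out 1 library moved the 912 to between 625 and 1458 and the 1384 to between 792 and 4067, and the overlap rests on these counts. Both highest counts came without C57n:C3Hmt replicate 1, and the lowest without C3Hn:C57mt replicate 4 and C3Hn:C3Hmt replicate 2. The test of the difference between them called 0 of 16153 genes (0%) with edgeR and 0 with DESeq2, with 546 genes at an unadjusted p under 0.05. A count of 0 does not show that such differences are absent.

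The largest differences were genes read from one nucleus and almost not from the other. At most 3 counts in every C57 nucleus library, with a mean of at least 5 CPM with the C3H nucleus, were found for 10 gene records, 6 of them with a gene symbol: H2-Ea, Lap1B, Ifi202b, Hist1h2bk, Klk1b22 and H28. The reverse held for 1 gene, Ccl21a. All 11 were also at or under 3 counts with the same nucleus in HFD iWAT and in chow gastrocnemius muscle, and 9 of them in chow epididymal fat. In muscle H28 averaged only 0.239 CPM with the C3H nucleus, so its low count with the C57 nucleus says little there. The next lowest such mean in muscle was 1.57 CPM, for Ifi202b. A limit of 3 counts a library corresponds to 0.1298 CPM in the C57 nucleus libraries and 0.1284 CPM in the C3H nucleus libraries, and bounds on these folds cover counting error only.

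H2-Ea, which encodes the alpha chain of the MHC class II E molecule (chr17:34478897-34481589 on mm9, chr17 being the MHC chromosome), was read in every C3H nucleus library. In C3Hn:C3Hmt it measured 109, 51.7, 112 and 77.5 CPM in replicates 1 to 4, and in C3Hn:C57mt 181, 67.9, 193 and 146 CPM. In the C57 nucleus it measured 0 CPM in 7 libraries and 0.0434 CPM in the eighth, so the C3H nucleus was at least 903.5-fold higher. C57BL/6 mice are known to carry a deletion in this gene and to make no E alpha chain, and the mm9 gene models list it as a pseudogene. Its absence in the libraries labelled with a C57 nucleus, both wild type and MNX, is a check of the labels.

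Ifi202b, an interferon-inducible gene of the p200 family (chr1:175892700-175912975), had a lowest, median and highest value of 14.5, 18.5 and 39.7 CPM with the C3H nucleus and at most 0.0393 CPM with the C57 nucleus, at least 170-fold lower. H28, a minor histocompatibility antigen that RefSeq names Ifi44l, ranged from 3.48 to 9.33 CPM (median 6.21) with the C3H nucleus, at least 44.73-fold above the C57 nucleus. The histone gene Hist1h2bk ranged from 7.99 to 17.6 CPM (median 9.86), at least 90.07-fold above. Klk1b22, a tissue kallikrein with close copies among its neighbours, ranged from 3.41 to 15.9 CPM (median 8.97), at least 70.42-fold above. Hist1h2bk and Klk1b22 belong to families whose near-identical members can share reads, so which copy the reads came from is uncertain.

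In the other direction, Ccl21a, a chemokine of lymph node stroma and lymphatic vessels, had 0 counts in all 8 C3H nucleus libraries. With the C57 nucleus its lowest, median and highest values were 1.14, 14.97 and 26.5 CPM, at least 109.3-fold higher. Ccl21a has near-identical copies in the genome, and the count cannot say which were present in each strain. The 28 other genes of the lymphocyte and lymph node list had no member called, against 18.4% of all genes. Ccl21a alone carries the list's 1 call.

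A pair of records of 1 gene went in opposite directions. Tor1aip1, which encodes lamina-associated polypeptide 1B of the inner nuclear membrane (chr1:157851729-157883610), measured 41.9, 45.8 and 53.7 CPM with the C57 nucleus and 0, 0 and 3.48 CPM with the C3H nucleus. The record Lap1B, which RefSeq assigns to the same gene, measured 0 CPM in all C57 nucleus libraries and 36.7, 41.8 and 49.5 CPM with the C3H nucleus. The log2 fold change of Tor1aip1 was 7.86 ± 0.88 (SE, adjusted p = 2.43e-05), and Lap1B was at least 323.7-fold higher with the C3H nucleus. Summed, the 2 records gave 47.3 ± 4.43 CPM with the C57 nucleus and 42.5 ± 3.09 CPM with the C3H nucleus (SD, n = 8 each), so the gene's total differed by little more than its spread. Of 413 RefSeq genes with 2 or more tested records, 4 had records called in opposite directions. Klrb1b and Klrb1d, a natural killer cell receptor pair named after their values were seen, were among these 4.

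**Figure D2:**
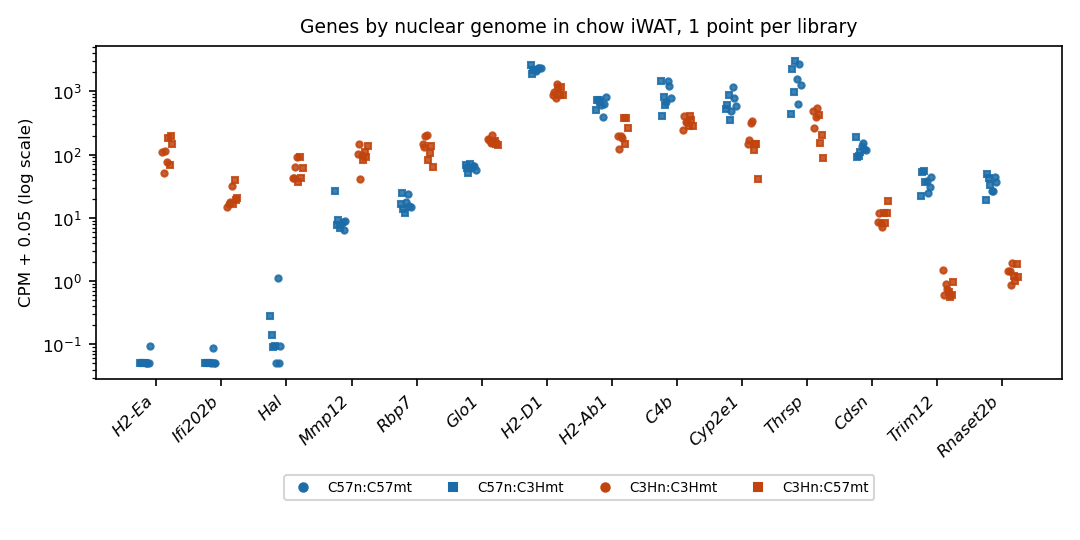
CPM plus 0.05 on a log axis for 14 genes in the 16 chow iWAT libraries, 1 point per library, blue for the C57 nucleus and orange for the C3H nucleus (circles wild types, squares MNX lines). H2-Ea, Ifi202b and Hal lie near the bottom in all C57 nucleus libraries, and Thrsp is the one of the 14 whose ranges overlap (443 to 3049 CPM against 89.3 to 545).

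Hal and its neighbour differed together. Hal encodes histidine ammonia-lyase, the first enzyme of histidine breakdown (chr10:92951513-92982049, plus strand). With the C3H nucleus it measured 43.1, 42.0, 63.6 and 92.2 CPM in C3Hn:C3Hmt replicates 1 to 4 and 37.1, 90.1, 42.9 and 60.6 CPM in C3Hn:C57mt. With the C57 nucleus it stayed between 0 and 1.06 CPM, a log2 fold change of -8.39 ± 0.63 (SE, adjusted p = 5.35e-07). Amdhd1, a later enzyme of the same pathway that lies next to it on the minus strand (chr10:92986083-93002778) and was looked up after the value of Hal was seen, ranged from 2.09 to 6.42 CPM (median 2.77) with the C3H nucleus and from 0 to 0.181 CPM (median 0.0432) with the C57 nucleus, a log2 fold change of -5.88 ± 0.48 (SE, adjusted p = 1.25e-06). In neither gene did the groups overlap.

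Other genes of large effect were higher with the C57 nucleus, and all of those given here separated the 8 libraries from the 8. Trim12, of the tripartite motif family of antiviral proteins (chr7:111448408-111463980), had lowest, median and highest values of 22.1, 38.0 and 55.8 CPM with the C57 nucleus and 0.502, 0.666 and 1.45 CPM with the C3H nucleus, a log2 fold change of 5.64 ± 0.27 (SE, adjusted p = 4.13e-09). Rnaset2b, a secreted ribonuclease with a near-identical copy, had 19.04, 34.6 and 48.6 CPM against 0.808, 1.29 and 1.91 CPM, a log2 fold change of 4.71 ± 0.24 (SE, adjusted p = 1.07e-08). Pttg1, securin, which holds back the separation of sister chromatids, had 31.1, 36.8 and 41.0 CPM against 1.79, 2.18 and 4.501 CPM, a log2 fold change of 3.86 ± 0.15 (SE, adjusted p = 4.93e-10). Rab6b, a small GTPase of Golgi transport, and Fbxo44, an F-box protein of ubiquitin ligases, were higher by 4.15 and 4.76 (adjusted p = 1.12e-08 and 2.46e-06). In every one of these 5 the call was also made within each mitochondrial background. They were chosen for separation over the libraries of both backgrounds together, so separation within each background followed from that choice.

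Among abundant genes, those with a mean of at least 100 CPM in the higher group, Cdsn and Cryab led with the C57 nucleus. Cdsn, corneodesmosin, a cell adhesion protein known from skin whose gene lies in the MHC region (chr17:35689073-35694125), measured 91.1, 121 and 190.2 CPM against 7.07, 10.2 and 18.4 CPM, a log2 fold change of 3.58 ± 0.20 (SE, adjusted p = 2.38e-08). Mammary and skin epithelium genes summed to 5.91 to 15.02 CPM with the C3H nucleus and to 7.22 to 109 CPM with the C57 nucleus (median 8.57). Of the 6 tested 0 were called, against 18.4% of all genes. Cryab, a small heat shock chaperone, measured 75.0, 105 and 278 CPM against 12.0, 20.6 and 34.0 CPM, a log2 fold change of 2.62 ± 0.30 (SE, adjusted p = 3.17e-05). Neither gene's groups overlapped.

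With the C3H nucleus, Rbp7 and Ncan stood beside Mmp12 among the abundant genes. Rbp7, a cytosolic retinol-binding protein of fat and its endothelium, measured 64.0, 132 and 205 CPM against 11.9, 15.8 and 24.6 CPM, a log2 fold change of -2.90 ± 0.20 (SE, adjusted p = 2.27e-07) with no overlap. Ncan, neurocan, a chondroitin sulphate proteoglycan known from brain matrix, measured 34.7, 122 and 162 CPM against 8.11, 15.9 and 37.0 CPM, a log2 fold change of -2.60 ± 0.36 (SE, adjusted p = 0.000174), and the groups overlapped. Of the 24 genes with the largest separated changes, 5 in each direction are records with no gene symbol match and are counted here without being named.

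Genes at which C57 and C3H strains are known to differ were taken as a list of their own; the list was written with such differences in view and is no independent evidence of direction. Of 14 listed genes 13 were tested. With the C57 nucleus 4 were called higher and with the C3H nucleus 6, against 8.91% and 9.53% of all genes. Glo1, which detoxifies methylglyoxal, and Alad, the second enzyme of haem synthesis, lie in stretches whose copy number is known to vary among inbred strains. Glo1 measured 139, 158 and 207 CPM with the C3H nucleus and 51.0, 63.8 and 69.8 CPM with the C57 nucleus, a log2 fold change of -1.38 ± 0.08 (SE, adjusted p = 5.17e-08). Alad measured 123, 155 and 186 CPM against 44.1, 50.2 and 64.9 CPM, a log2 fold change of -1.56 ± 0.10 (SE, adjusted p = 6.33e-08). Both were separated with no overlap.

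Klra8, the activating natural killer cell receptor Ly49H that C57BL/6 mice are known for, had 0 CPM in all C3H nucleus libraries and 0.273, 1.11 and 3.05 CPM with the C57 nucleus, at least 10.45-fold higher (adjusted p = 0.000464). AI451617 (3.63 ± 0.29 (SE, adjusted p = 9.58e-07)), Entpd4, a Golgi nucleotidase (0.997 ± 0.10 (SE, adjusted p = 6.21e-06)), and Apobec3, a cytidine deaminase that restricts retroviruses (2.14 ± 0.40 (SE, adjusted p = 0.0021)), were also higher with the C57 nucleus. Wdfy1, an adaptor of endosomes, was lower (-1.77 ± 0.13 (SE, adjusted p = 2.99e-07)).

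Nnt, the mitochondrial transhydrogenase of which C57BL/6J is known to carry a deletion, measured 9.14, 11.8 and 14.6 CPM with the C57 nucleus and 12.2, 14.9 and 18.6 CPM with the C3H nucleus. Its log2 fold change was -0.36 ± 0.11 (SE, adjusted p = 0.03), and the call was lost under 9 of 24 alternative settings. In gastrocnemius muscle the same contrast gave -1.70 (adjusted p = 1.48e-11). Reads from the undeleted exons count towards this gene, so its level is no measure of the functional protein. Tlr4, the endotoxin receptor, was not called (-0.15 ± 0.15 (SE, adjusted p = 0.485)); the known Tlr4 mutation belongs to C3H/HeJ, a different substrain. Naip1 was not called (0.02 ± 0.48 (SE, adjusted p = 0.979)). Tph2, a serotonin-synthesising enzyme of neurons, was not called in the full set (-2.32 ± 0.86 (SE, adjusted p = 0.075)) and was at -4.41 (adjusted p = 2.09e-05) without C57n:C3Hmt replicate 1, which alone held 18.5 CPM among C57 nucleus libraries.

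Of the MHC class II genes, all 12 listed were tested, with 6 called higher with the C57 nucleus and 1, H2-Ea, with the C3H nucleus, against 8.91% and 9.53% of all genes, and the list's median was 1.08. These molecules present peptides of extracellular origin on dendritic cells, macrophages and B cells. H2-Ab1, the beta chain of the A molecule, measured 388, 664 and 811 CPM with the C57 nucleus and 120.3, 194 and 378 CPM with the C3H nucleus, a log2 fold change of 1.51 ± 0.20 (SE, adjusted p = 0.000143) with no overlap. H2-Eb1, the E beta chain that pairs with the product of H2-Ea, measured 457, 814 and 936 CPM against 134, 266 and 541 CPM, a log2 fold change of 1.39 ± 0.24 (SE, adjusted p = 0.00101), and here the groups overlapped. H2-Aa (1.10) and the peptide-loading genes H2-DMa (1.17) and H2-DMb1 (0.91) were the next called members, named after their values were seen (adjusted p = 0.00324, 0.00466 and 0.00379).

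Lymphocyte genes, B cell markers among them, summed to a median of 1836 CPM with the C57 nucleus and 993.7 CPM with the C3H nucleus. Without the 5 lymphocyte-poor libraries 10 class II members were called higher with the C57 nucleus, and with lymphocyte and muscle scores as covariates 7. Over all genes the same 2 fits called 2384 and 1709 higher with the C57 nucleus, against 1439 in the main fit. In HFD iWAT 0 class II members were higher with the C57 nucleus and 2 with the C3H nucleus, where 8.17% of all genes were called. H2-Ab1 was at 0.74 on HFD (adjusted p = 0.305).

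As regulatory sequence of the called class II genes, the 200 bases before the start of 3 of them are shown, from RefSeq on GRCm38.p6, each written along the strand of its gene. Promoters of 4 of the 5 class II genes looked for were matched by symbol. The sequences were searched on both strands for GATTGG, the core of the Y box bound by NF-Y, whose reverse complement is CCAATC, and for GCAACAG, a core of the X box bound by RFX; capitals mark GATTGG or CCAATC. The coordinates are chr17:34287824-34288023 on the minus strand for H2-Aa, chr17:34305667-34305866 on the plus strand for H2-Eb1 and chr17:34152991-34153190 on the plus strand for H2-DMb1.
H2-Aa: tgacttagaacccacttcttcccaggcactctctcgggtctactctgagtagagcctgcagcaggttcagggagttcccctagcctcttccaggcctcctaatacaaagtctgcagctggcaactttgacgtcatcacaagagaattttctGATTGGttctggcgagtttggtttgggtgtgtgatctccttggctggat
H2-Eb1: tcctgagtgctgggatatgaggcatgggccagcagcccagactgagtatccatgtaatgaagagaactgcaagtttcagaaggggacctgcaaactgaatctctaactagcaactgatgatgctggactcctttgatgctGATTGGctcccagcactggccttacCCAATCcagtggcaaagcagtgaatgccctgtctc
H2-DMb1: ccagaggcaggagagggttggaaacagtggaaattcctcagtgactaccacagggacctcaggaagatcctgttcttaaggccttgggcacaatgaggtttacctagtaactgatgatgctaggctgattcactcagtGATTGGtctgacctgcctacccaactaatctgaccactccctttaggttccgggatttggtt
The Y box core stood 49 bases before the start of H2-Aa, 62 before that of H2-DMb1, and 60 and, on the other strand, 35 before that of H2-Eb1. Of 32851 promoter windows of the same length 12.9% held it. The exact letters GCAACAG were in none of the 3, and in 3.77% of all windows. Other forms of the X box were not searched for, so this does not show that an X box is missing. For H2-DMa, which has 2 listed starts, the Y box core was found before 1 of them. These sequences are of the reference strain, and a match is a description and not a measured binding site.

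MHC class I genes went in both directions. Of 25 listed genes 21 were tested, with a median of 0.0285. With the C57 nucleus 3 were called higher and with the C3H nucleus 4, against 8.91% and 9.53% of all genes. H2-D1, a classical class I molecule of all nucleated cells, measured 1903, 2242 and 2618 CPM with the C57 nucleus and 787, 927 and 1293 CPM with the C3H nucleus, a log2 fold change of 1.17 ± 0.12 (SE, adjusted p = 9.44e-06) with no overlap. H2-Q2, a non-classical member, measured 0.0787, 0.256 and 0.386 CPM against 23.9, 30.1 and 36.8 CPM (-7.07 ± 0.25 (SE, adjusted p = 1.19e-10)), and H2-Bl 0.136, 0.475 and 0.677 CPM against 12.3, 15.69 and 23.4 CPM (-5.27 ± 0.26 (SE, adjusted p = 7.71e-09)). Class I genes are highly similar and differ by haplotype, so reads can be split among copies and these levels are uncertain.

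Of 37 listed interferon response genes 36 were tested, with 3 higher with the C57 nucleus and 2 with the C3H nucleus. The share called lay below the 18.4% of all genes, and the median was 0.236. Rsad2, viperin, an antiviral enzyme, ranged from 13.5 to 31.2 CPM (median 15.6) with the C57 nucleus and from 3.81 to 9.73 CPM (median 7.24) with the C3H nucleus, a log2 fold change of 1.30 ± 0.17 (SE, adjusted p = 8.72e-05) with no overlap. Ifi44 was lower with the C57 nucleus (-1.20 ± 0.21 (SE, adjusted p = 0.00111)). The count higher with the C57 nucleus ran from 1 to 8 over the fits that left out 1 of the 16 libraries, moving by over 1.5 times in 10 of them.

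Among complement and coagulation genes, the near-identical copies C4b and C4a changed in opposite directions. Of 36 listed genes 33 were tested, with a median of -0.193. With the C57 nucleus 4 were called higher and with the C3H nucleus 6, against 8.91% and 9.53% of all genes. C4b, complement component 4, measured 413, 805 and 1437 CPM against 241, 322 and 407 CPM, a log2 fold change of 1.49 ± 0.24 (SE, adjusted p = 0.000652) with no overlap. Its copy C4a measured 2.32, 3.79 and 6.23 CPM against 10.4, 18.7 and 29.9 CPM (-2.34 ± 0.27 (SE, adjusted p = 3.1e-05)). C1rb, a copy of the gene for the C1r protease, measured 0, 0.301 and 0.591 CPM against 7.25, 9.21 and 10.1 CPM (-4.93 ± 0.50 (SE, adjusted p = 9.13e-06)). Without C57n:C3Hmt replicate 1, 10 members rather than 6 were called higher with the C3H nucleus, while over all genes that count rose from 1540 to 2823.

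Of the 20 listed genes of de novo lipogenesis, which builds fatty acids from acetyl-CoA, all were tested: 8 were called higher with the C57 nucleus and 0 with the C3H nucleus, against 8.91% and 9.53% of all genes, with a median of 0.534. Thrsp (Spot 14), a regulator of lipogenesis, measured 443, 1407 and 3049 CPM with the C57 nucleus and 89.3, 330.1 and 545 CPM with the C3H nucleus, a log2 fold change of 2.41 ± 0.43 (SE, adjusted p = 0.00138) with overlap. Acss2, the cytosolic enzyme that makes acetyl-CoA from acetate, measured 157, 389 and 671 CPM against 53.8, 114 and 227 CPM (1.67 ± 0.32 (SE, adjusted p = 0.00229)). Mlxipl, which encodes the glucose-sensing factor ChREBP, measured 50.6, 93.9 and 184 CPM against 45.4, 53.6 and 66.5 CPM (0.97 ± 0.24 (SE, adjusted p = 0.0126)). Each of the 3 overlapped between nuclei.

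Also called higher with the C57 nucleus, and named after their values were seen, were Acly, ATP citrate lyase (1.54 ± 0.46 (SE, adjusted p = 0.0314)), Acaca, acetyl-CoA carboxylase (1.32 ± 0.35 (SE, adjusted p = 0.0183)), Mod1, malic enzyme (0.93 ± 0.28 (SE, adjusted p = 0.0341)), and the desaturases Fads1 (0.37 ± 0.12 (SE, adjusted p = 0.0386)) and Fads2 (0.39 ± 0.13 (SE, adjusted p = 0.0426)). Acly spanned 247 to 3180 CPM within the C57 nucleus alone. The count of lipogenic genes called higher with the C57 nucleus ran from 4 to 11 over the fits that left out 1 library, moved by over 1.5 times in 11 of the 16, and was 4 with lymphocyte and muscle covariates.

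The list of fatty acid uptake holds carriers, binding proteins and regulators of lipoprotein lipase. All 17 were tested, with 1 called higher with the C57 nucleus and 5 higher with the C3H nucleus, and a median of -0.308, against 8.91% and 9.53% of all genes. Angptl4, an inhibitor of lipoprotein lipase, measured 230.2, 437 and 648 CPM against 587, 734 and 1187 CPM (-0.89 ± 0.20 (SE, adjusted p = 0.00755)). Fabp4, the abundant fatty acid-binding protein of adipocytes, measured 9230, 11100 and 14610 CPM against 13390, 16190 and 23010 CPM (-0.59 ± 0.14 (SE, adjusted p = 0.00913)), and its relative Fabp5 was lower by -0.64 (adjusted p = 0.00877). Without C57n:C3Hmt replicate 1 the count with the C3H nucleus was 9, while over all genes it rose from 1540 to 2823.

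Of the genes of triglyceride storage, 20 of 21 listed were tested. Of these, 1 was higher with the C57 nucleus and 4 with the C3H nucleus (median -0.204), against 8.91% and 9.53% of all genes. Cidec, which fuses lipid droplets, measured 1330, 1641 and 3499 CPM against 2462, 3420 and 4679 CPM (-0.87 ± 0.19 (SE, adjusted p = 0.00688)). Dgat1, the last step of triglyceride synthesis, was lower with the C57 nucleus (-0.43 ± 0.10 (SE, adjusted p = 0.00703)). Of 15 lipolysis genes, all tested, 0 were higher with the C57 nucleus and 2 with the C3H nucleus (median -0.208), a share below the 18.4% of all genes. Mgll, monoacylglycerol lipase, which releases the last fatty acid, measured 825, 1072 and 1582 CPM against 2013, 2791 and 3276 CPM, a log2 fold change of -1.20 ± 0.14 (SE, adjusted p = 4.67e-05) with no overlap. Abhd5, the activator of adipose triglyceride lipase, was the other (-0.39 ± 0.12 (SE, adjusted p = 0.0435)), and its call was lost under 15 of 24 alternative settings. The storage count with the C3H nucleus ran from 2 to 7 over the fits without 1 library, 7 without C57n:C3Hmt replicate 1. Over all genes the latter fit called 2823 higher with the C3H nucleus, against 1540.

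Cholesterol synthesis had 3 of 21 tested members higher with the C57 nucleus and 1 with the C3H nucleus, among those higher with the C57 nucleus Sc5d, a sterol desaturase (1.10 ± 0.19 (SE, adjusted p = 0.00125)). Fatty acid oxidation had 3 of 25 higher with the C57 nucleus and 1 with the C3H nucleus, with a median of 0.00317. Acadl, long-chain acyl-CoA dehydrogenase (0.86 ± 0.16 (SE, adjusted p = 0.00172)), and Dci, enoyl-CoA isomerase (0.72 ± 0.13 (SE, adjusted p = 0.00155)), were 2 of the 3. The share called in both lists lay near the 18.4% of all genes.

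**Figure D3:**
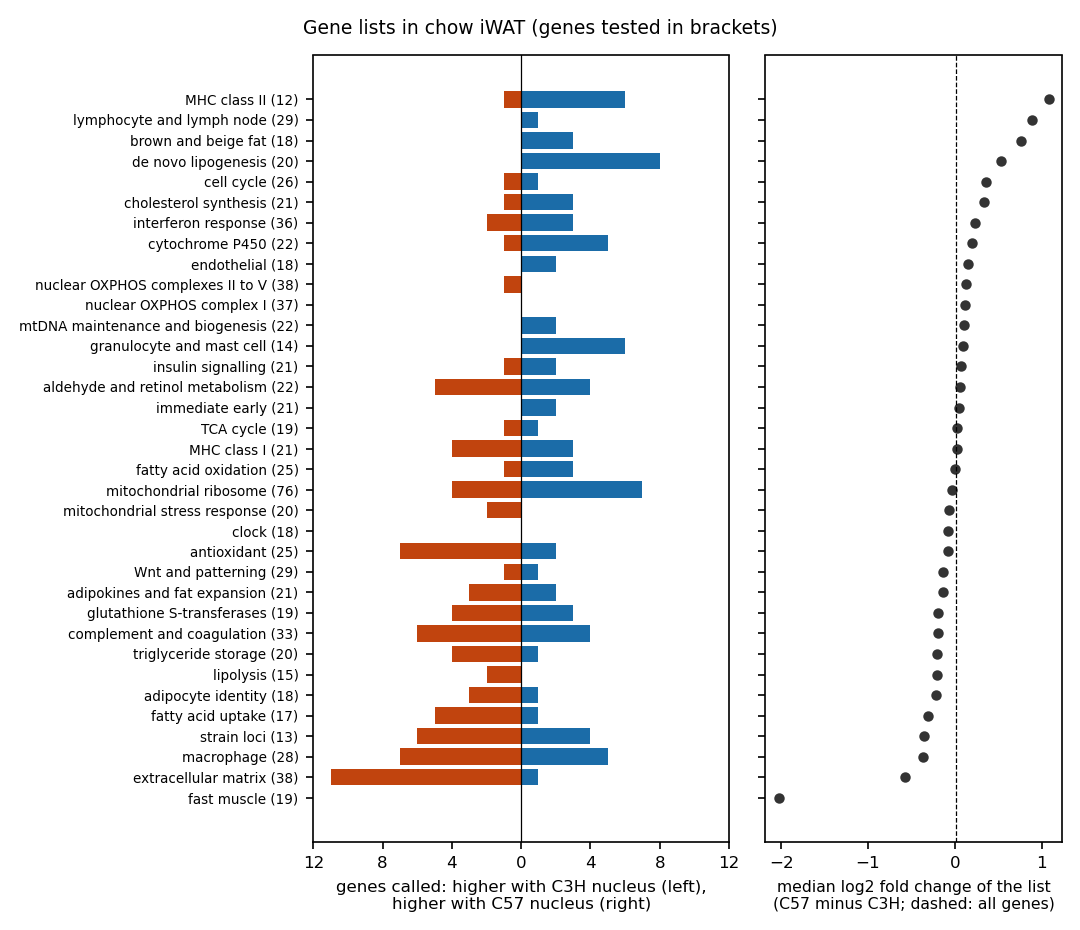
Left, for each gene list with at least 10 tested genes, the number called higher with the C57 nucleus (blue, to the right) and with the C3H nucleus (orange, to the left); right, the list's median log2 fold change, with the median of all genes (0.0148) dashed. De novo lipogenesis has 8 genes to the right and 0 to the left, and the extracellular matrix 1 to the right and 11 to the left.

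Enzymes of foreign-compound metabolism included some of the larger abundant changes. Of 26 cytochrome P450 genes 22 were tested. Of these, 5 were higher with the C57 nucleus and 1 with the C3H nucleus (median 0.197), against 8.91% and 9.53% of all genes. Cyp2e1, which oxidises ethanol and acetone, measured 356, 597 and 1170 CPM against 40.8, 146 and 333 CPM, a log2 fold change of 2.03 ± 0.30 (SE, adjusted p = 0.000318) with no overlap. Cyp2f2, known from lung and liver, measured 12.5, 41.4 and 76.1 CPM against 2.48, 5.65 and 18.97 CPM (2.55 ± 0.36 (SE, adjusted p = 0.000205)). The count with the C57 nucleus ran from 3 to 6 over the fits without 1 library and moved by over 1.5 times in 10 of them.

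Of 22 glutathione S-transferase genes 19 were tested. With the C57 nucleus 3 were higher and with the C3H nucleus 4, against 8.91% and 9.53% of all genes. The 3 were Gsta3, at 47.6, 71.7 and 82.8 CPM against 11.0, 22.5 and 38.5 CPM (1.47 ± 0.20 (SE, adjusted p = 0.000154)), Gstm6 (2.33 ± 0.26 (SE, adjusted p = 2.84e-05)) and Mgst2 (0.86 ± 0.09 (SE, adjusted p = 1.54e-05)). They kept their count at 3 or 4 over the fits without 1 library, whereas the count with the C3H nucleus ran from 1 to 7. Antioxidant genes had 2 of 25 higher with the C57 nucleus and 7 with the C3H nucleus (median -0.0831), against 8.91% and 9.53% of all genes. Catalase, Cat, ranged from 621 to 932 CPM (median 709.7) with the C57 nucleus and from 837 to 1356 CPM (median 1067) with the C3H nucleus (-0.54 ± 0.10 (SE, adjusted p = 0.00201)). Peroxiredoxin 2, Prdx2, was lower with the C57 nucleus (-0.46 ± 0.08 (SE, adjusted p = 0.00101)) and the mitochondrial peroxiredoxin Prdx3 higher (0.54 ± 0.12 (SE, adjusted p = 0.00508)). The 7 became between 2 and 9 over the fits without 1 library and moved by over 1.5 times in 9 of the 16.

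Nuclear genes of the respiratory chain were almost all short of the threshold. All 37 nuclear complex I genes were tested and 0 were called, with a median of 0.113, against 18.4% of all genes. Of 38 tested genes of complexes II to V 1 was called, with the C3H nucleus higher (median 0.127). All 76 mitochondrial ribosome genes were tested, with 7 higher with the C57 nucleus and 4 with the C3H nucleus, a share below the 18.4% of all genes. Over the fits without 1 library the 7 became 2 to 8, moving by over 1.5 times in 11 of the 16, and the 4 became 2 to 7, moving so in 10. The clearest of them were Mrpl35, at 22.1, 27.03 and 36.1 CPM against 15.2, 16.6 and 21.2 CPM (0.73 ± 0.10 (SE, adjusted p = 0.000157)), and Mrpl14 (-0.52 ± 0.08 (SE, adjusted p = 0.000597)). Both encode proteins of the large subunit.

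Of 13 listed mtDNA-encoded genes 3 were in the table, and 0 were called, against 18.4% of all genes. mt-Nd4, a complex I subunit, measured 7765, 13330 and 21810 CPM with the C57 nucleus and 8428, 10570 and 12040 CPM with the C3H nucleus (0.50 ± 0.20 (SE, adjusted p = 0.106)). Cox2, of cytochrome oxidase, and Atpase6, of ATP synthase, were at 0.48 and 0.43 (adjusted p = 0.179 and 0.185). All 3 were called higher with the C57 nucleus once C57n:C3Hmt replicate 1 was left out, a fit that called 5139 genes rather than 2979. The Y-linked genes Ddx3y, Eif2s3y, Jarid1d and Uty were read in all 16 libraries at 10.4 CPM or more. Of these 4, 0 were called, against 18.4% of all genes. Ddx3y (-0.34 ± 0.13 (SE, adjusted p = 0.0845)) passed the threshold without that same library. Of 18 clock genes 0 were called (median -0.0793), against 18.4% of all genes.

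All 38 extracellular matrix genes were tested: 1 was higher with the C57 nucleus and 11 with the C3H nucleus, against 8.91% and 9.53% of all genes, and the median was -0.569. Postn, periostin, an organiser of collagen, measured 79.8, 96.9 and 143 CPM with the C57 nucleus and 161, 203 and 248.7 CPM with the C3H nucleus, a log2 fold change of -0.93 ± 0.13 (SE, adjusted p = 0.000211) with no overlap. Col5a3, a chain of the fibril-starting collagen V, measured 243, 395 and 782 CPM against 785, 1203 and 1698 CPM (-1.60 ± 0.23 (SE, adjusted p = 0.000292)), again with no overlap. The fibrillar collagens Col1a1 (-0.86 ± 0.22 (SE, adjusted p = 0.0134)), Col1a2 (-0.84 ± 0.20 (SE, adjusted p = 0.0109)) and Col3a1 (-0.76 ± 0.23 (SE, adjusted p = 0.0359)), named after their values were seen, were lower too. Mgp, matrix Gla protein, an inhibitor of calcification likewise named after its value was seen, was the 1 higher with the C57 nucleus (0.98 ± 0.17 (SE, adjusted p = 0.00114)).

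The matrix count rested on 1 library more than on any other. Without C57n:C3Hmt replicate 1 it was 28 of 38 with the C3H nucleus, against 7 to 11 when any of the other 15 was left out, 7 of which gave a count of 7. It was 29 without the muscle-rich libraries and 26 without the lymphocyte-poor ones. Calls over all genes rose in these fits too. All genes called higher with the C3H nucleus numbered 1540 in the full set and 2823 without C57n:C3Hmt replicate 1. They numbered 3026 without the muscle-rich libraries and 2359 without the lymphocyte-poor ones. In HFD iWAT 2 matrix genes were higher with the C57 nucleus and 1 with the C3H nucleus (median 0.116), where 8.17% of all genes were called. Col5a3 was at -0.63 on HFD (adjusted p = 0.316) and Col1a1 at 0.06 (adjusted p = 0.898).

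Macrophage genes were called in both directions. All 28 were tested, with 5 higher with the C57 nucleus and 7 with the C3H nucleus (median -0.371), against 8.91% and 9.53% of all genes. Mmp12, the macrophage metalloelastase, which also stands in the matrix list, measured 6.35, 8.19 and 26.7 CPM with the C57 nucleus and 40.8, 99.7 and 149 CPM with the C3H nucleus, a log2 fold change of -3.34 ± 0.32 (SE, adjusted p = 5.43e-06) with no overlap. Trem2, a lipid receptor of macrophages, measured 0.775, 2.04 and 10.4 CPM against 15.3, 22.8 and 31.4 CPM (-3.19 ± 0.43 (SE, adjusted p = 0.000153)). Cd68, a lysosomal protein and general macrophage marker, measured 23.7, 36.7 and 48.9 CPM against 68.6, 74.7 and 96.8 CPM (-1.10 ± 0.16 (SE, adjusted p = 0.000218)). Gpnmb, a glycoprotein of lipid-laden macrophages named after its value was seen, was lower as well (-1.90 ± 0.30 (SE, adjusted p = 0.000526)).

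The chemokine receptors Cx3cr1 (1.38 ± 0.38 (SE, adjusted p = 0.0202)) and Ccr2 (0.78 ± 0.16 (SE, adjusted p = 0.0036)), which mark patrolling and recruited monocytes, were among the 5 higher with the C57 nucleus and were named after their values were seen. Summed over the list, macrophage genes came to 1378 to 2233 CPM with the C57 nucleus and 1802 to 2511 CPM with the C3H nucleus, so the summed levels overlapped. The 7 members higher with the C3H nucleus became 6 to 10 over the fits without 1 library, and the 5 higher with the C57 nucleus became 2 to 6.

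**Figure D4:**
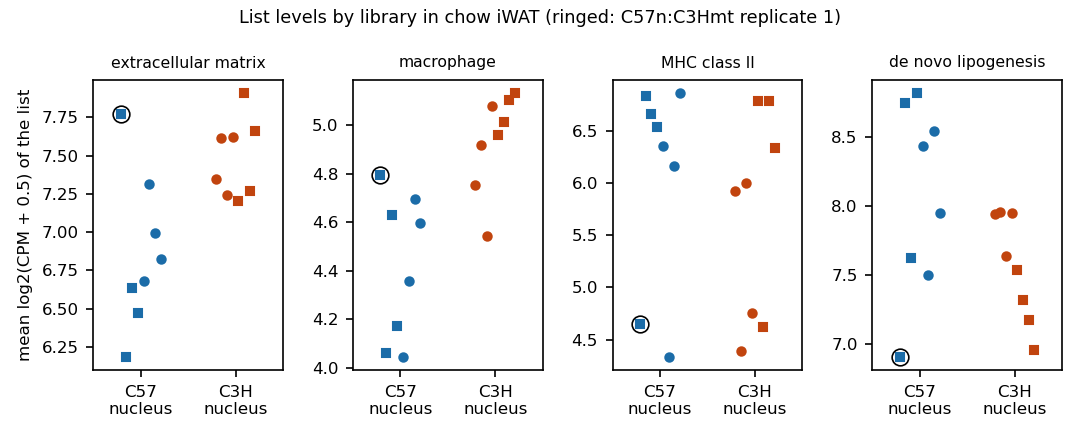
Mean log2(CPM + 0.5) over the genes of 4 lists in each of the 16 chow iWAT libraries, blue for the C57 nucleus and orange for the C3H nucleus (circles wild types, squares MNX lines), with C57n:C3Hmt replicate 1 ringed. The extracellular matrix median is 6.75 with the C57 nucleus and 7.48 with the C3H nucleus, and the ringed library is the highest of its nucleus at 7.77.

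Of 17 listed granulocyte and mast cell genes 14 were tested (median 0.0898). With the C57 nucleus 6 were higher and with the C3H nucleus 0, against 8.91% and 9.53% of all genes. The 6 and the 0 did not change in any fit that left out 1 library. Genes of these cells outside the list went the other way, the mast cell tryptase Tpsab1 (-2.26 ± 0.23 (SE, adjusted p = 1.15e-05)) and the eosinophil-associated ribonuclease Ear11 (-4.91 ± 0.83 (SE, adjusted p = 0.000882)). Mmp9, gelatinase B of neutrophils, measured 10.7, 21.9 and 44.2 CPM against 3.70, 5.91 and 10.2 CPM, a log2 fold change of 2.03 ± 0.19 (SE, adjusted p = 3.93e-06) with no overlap. Fcer1a, the IgE receptor of mast cells and basophils (1.93 ± 0.40 (SE, adjusted p = 0.00413)), and Camp, the neutrophil granule peptide cathelicidin (3.02 ± 0.70 (SE, adjusted p = 0.00859)), had highest values of only 1.10 and 5.46 CPM. Summed, the list came to 128.7 to 212.5 CPM with the C57 nucleus and 92.95 to 183.7 CPM with the C3H nucleus, which overlap.

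The list of brown and beige fat, whose genes serve heat production, had 3 of 18 tested members higher with the C57 nucleus and 0 with the C3H nucleus (median 0.76), a share near the 18.4% of all genes. Cidea, a lipid droplet protein of thermogenic fat, measured 20.0, 279 and 662 CPM against 57.4, 89.5 and 182 CPM (1.63 ± 0.50 (SE, adjusted p = 0.0357)), and its call was lost under 10 of 24 alternative settings. Acot11, a cold-induced thioesterase, measured 2.41, 73.1 and 213 CPM against 1.76, 6.21 and 26.6 CPM (3.14 ± 0.85 (SE, adjusted p = 0.0197)), and Pank1, of coenzyme A synthesis, was higher by 1.37 (adjusted p = 0.0227). The lowest Cidea value of the C57 nucleus belonged to C57n:C3Hmt replicate 1. Without that library 7 members were called, without C3Hn:C3Hmt replicate 1 5, and without C57n:C3Hmt replicate 2 1. Over all genes these 3 fits called 5139, 2700 and 2310. The list's summed level ran from 187.2 to 2835 CPM with the C57 nucleus and from 386.1 to 1190 CPM with the C3H nucleus.

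Called genes were spread over the chromosomes. Of 13439 tested genes with a position on mm9, 2495 (18.6%) were called, and over the autosomes the share ran from 13.8% on chromosome 10 to 22.6% on chromosome 4, with 16.8% on the X and 0 of 5 genes on the Y. In windows of 15 neighbouring tested genes the median number called was 3. The highest was 11, at chr6:129781172-134516983, of which 8 were higher with the C57 nucleus. That window holds Klra8 and its Klra relatives, a cluster of natural killer cell receptors whose gene content is known to differ between strains, and near-identical copies there can share reads.

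The nuclear effect was looked up in 3 other sets of libraries. HFD iWAT came from other animals, shared no library with the chow set, and was sequenced in lane 1 of 3 runs, of which 2 held both nuclei and 1 a single C3H nucleus library. Over the 3 runs together, base differences from mm9 overlapped between the nuclei (3.998 to 8.669 per 1000 bases with C57, 5.67 to 8.90 with C3H). Within each of the 2 runs that held both nuclei they did not overlap. In 1 of these runs they were 7.403 to 8.669 with C57 and 8.841 to 8.901 with C3H. In the other they were 3.998 to 5.02 with C57 and 5.668 to 5.964 with C3H. H2-Ea had at most 2 counts in each C57 nucleus library on HFD. In HFD iWAT 1305 of 15969 genes (8.17%) were called, and 1848 with the run as a covariate. Of the 2875 genes called on chow and tested in both, 75.03% had the same sign on HFD, against 47.05% of all genes tested in both. Called in both were 661 genes, 22.99% of the chow list and 51.68% of the HFD list, and 3 of them were in opposite directions. The genes called on chow had a median absolute log2 fold change of 0.62 on chow and 0.358 on HFD. They were selected by their chow values, so the 2 medians do not compare the strength of the effect between diets.

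In chow epididymal fat, of which 8 animals also gave an iWAT library, 970 of 17575 genes (5.52%) were called, and 612 were called in both depots, 20.9% of the iWAT list and 66.59% of the epididymal list, with 3 in opposite directions. Lane and nucleus were nearly the same split there. All 7 C3H nucleus libraries and 1 of the C57 nucleus were in lane 5, and the other 7 of the C57 nucleus in lane 6. In chow gastrocnemius muscle, of which 10 animals also gave an iWAT library, 4619 of 13735 genes (33.6%) were called. All 8 C3H nucleus muscle libraries were in lane 1 and all 8 of the C57 nucleus in lane 2, so lane and nucleus cannot be told apart there. Called in both tissues were 1162 genes, 48.32% of the iWAT list and 26.09% of the muscle list, and 234 of them were in opposite directions. Of 13189 genes tested in all 4 sets 196 were called in each, 191 of them in 1 direction throughout.

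**Figure D5:**
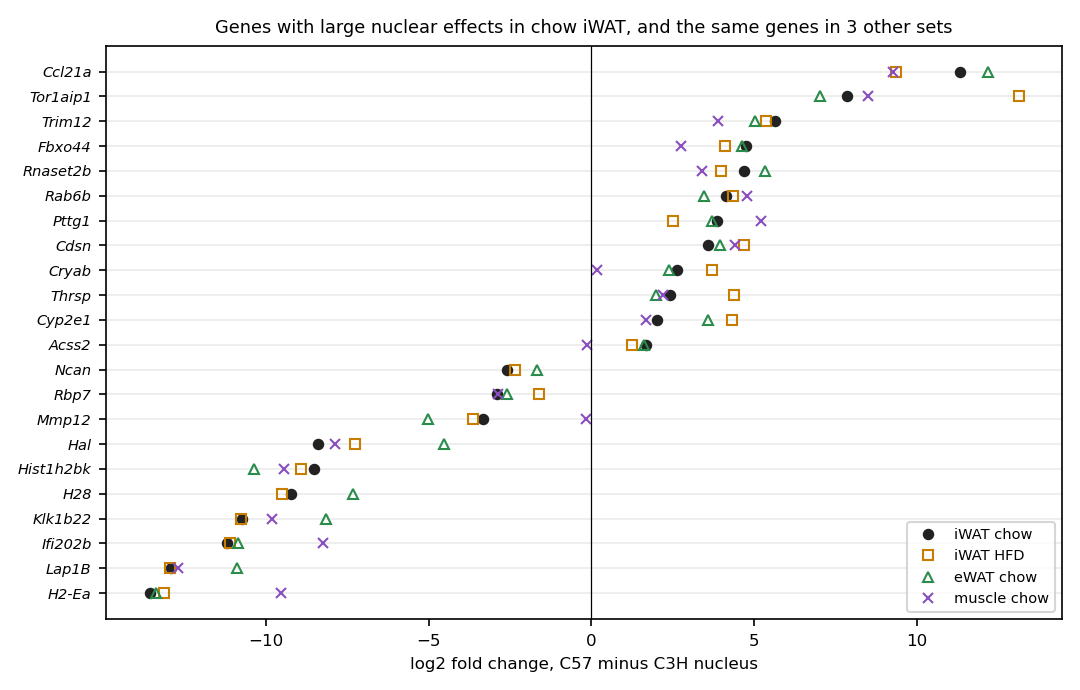
Log2 fold change (C57 minus C3H nucleus, x axis) of 22 named genes with large separated or large abundant changes in chow iWAT (filled circles), with the same genes in HFD iWAT (squares), chow epididymal fat (triangles) and chow muscle (crosses). H2-Ea and Lap1B lie farthest to the left, with fitted values that depend on the prior count since one nucleus is at 0, while Mmp12 is at -5.03 in epididymal fat and -0.18 in muscle.

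Several of the largest changes were called again. On HFD, Trim12 was at 5.36, Hal at -7.26, Mmp12 at -3.64, Cdsn at 4.69 and Thrsp at 4.40, and all 5 were called. Thrsp on HFD measured 12.3 to 53.7 CPM with the C3H nucleus and 287 to 1202 CPM with the C57 nucleus, so the groups that overlapped on chow did not overlap there. Several of the smaller metabolic changes were not called on HFD: Cidec was at 0.16, Fabp4 at 0.23, Acly at 0.54 and Mgll at -0.61 (adjusted p = 0.812, 0.701, 0.163 and 0.257). Mmp12 and Cryab were called in epididymal fat (-5.03 and 2.38) and were at -0.18 and 0.18 in muscle (adjusted p = 0.517 and 0.177).

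The difference of the nuclear effect between diets was itself tested over the 30 iWAT libraries. It was called for 121 of 16884 genes (0.717%), with the chow effect more positive in 83 and the HFD effect in 38, while run and diet cannot be told apart. Cyp2e1 ranged from 608.5 to 1598 CPM with the C57 nucleus and from 16.4 to 192.9 CPM with the C3H nucleus on HFD, a log2 fold change of 4.32 against 2.03 on chow. The difference was -2.32. Ear11, an eosinophil-associated ribonuclease, was lower with the C57 nucleus on chow (-4.91, 0 to 2.00 CPM against 2.99 to 9.73) and at 0.73 on HFD, where the ranges were 0.0469 to 18.9 CPM and 1.28 to 16.4 CPM.

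Elovl3, an elongase of very long chain fatty acids known from brown fat, did not pass on chow (0.67 ± 0.67 (SE, adjusted p = 0.494)), and on HFD it measured 0 to 1.503 CPM with the C57 nucleus against 1.22 to 41.3 CPM with the C3H nucleus (-4.62, adjusted p = 0.00611). Its difference between diets was 5.28. The neutrophil granule gene Ngp differed by 6.16, and the uncharacterised records A530050D06Rik and A530023O14Rik by 3.75 and 3.55. The count of 121 moved between 9 and 2223 over the fits without 1 library, with the lowest without the HFD library C3Hn:C57mt replicate 1 and the highest without the chow library C57n:C3Hmt replicate 1. DESeq2 called 1444 on the same libraries. Elovl3 lost its call under 15 of 33 alternative settings and Ngp under 24, all but 1 of the latter fits being without 1 library.

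Between the fat depots the difference was called for 25 of 18146 genes (0.138%), 21 with the more positive effect in iWAT. With the animal as a block, since 8 animals gave both depots, limma called 6 genes, 3 in each direction, of which 5 were among the 25, and none of the 5 genes named next was called. Wif1, a secreted Wnt inhibitor, measured 0.512 to 1.605 CPM with the C57 nucleus and 1.67 to 4.31 CPM with the C3H nucleus in iWAT, and 0.0371 to 0.229 against 1.4 to 31.7 CPM in epididymal fat, a difference of 3.91. Rgs2, a regulator of G protein signalling, measured 14.3, 51.6 and 89.3 CPM against 11.4, 18.4 and 27.2 CPM in iWAT (1.59 ± 0.29 (SE, adjusted p = 0.00172)) and differed by 2.70 between depots. Its relative Rgs1 differed by 3.47, the record 1300002K09Rik by 3.5 and the mast cell tryptase Tpsab1 by 2.66. Tpsab1 was lower with the C57 nucleus in both depots, at 0.497 to 1.30 against 3.01 to 10.6 CPM in iWAT and 0.0373 to 0.819 against 1.81 to 15.98 CPM in epididymal fat. The count ran from 0 to 156 over the fits without 1 library, and 5 epididymal libraries held over 10 times the median level of epididymis genes, whose part in these differences was not tested. The 5 genes named here each lost their call under 22 to 26 of 35 alternative settings.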

How the data were processed

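RNA sequencing libraries of inguinal fat, epididymal fat and gastrocnemius muscle were compared by nuclear genome. The authors deposited RSEM expected counts per gene on mm9, per the submitters' processing notes, which also name DESeq2 1.10.1; strandedness and the version of RSEM were not given in the sources used here. Per the file headers, the provider's tables give mapping as a percent and base differences as a fraction, shown here per 1000 bases.

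Expected counts were rounded, filtered (filterByExpr, minimum count 10, total 15, proportion 0.7), TMM-scaled and fitted with edgeR 4.0.16 (R 4.3.3; quasi-likelihood test, 2-sided, Benjamini-Hochberg, called under 0.05), with 4 groups of 4 for chow iWAT and the other sets fitted alike. CPM use TMM library sizes. Chow iWAT libraries held 21.2 M to 26.3 M counts. On simulated data with 15959 genes this comparison recovered 35.8%, 79.1% and 93.9% of genes changed by 1.5-, 2- and 4-fold, with 7 false calls. Counts were drawn independently for each gene around a common mean. Outlying libraries, RNA of other tissues, lanes and mapping differences were not simulated, so these rates do not cover them. Alternatives were DESeq2 1.42.0, RLE factors, no filter, covariates, GC content and length offsets, all iWAT libraries in 1 fit, a voom fit with animals as a block (limma 3.58.1), and single libraries left out. Libraries over 4000 CPM of fast muscle genes, or under 60 CPM of lymphocyte genes, were left out in fits chosen after seeing the data.

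Named genes were the 12 per direction with the largest change among called genes of at least 5 CPM without overlap, the 6 per direction among those of at least 100 CPM, up to 3 called members of each list with the smallest adjusted p, up to 6 per tested difference between diets or depots, strain loci, mtDNA-encoded and Y-linked genes. Genes of this rule that the text does not name are not reported here, and others are marked as named after their values were seen. The members and lists were chosen with earlier results of these data known. Positions are from GENCODE vM1 (mm9), matched for 17665 of 22781 gene records.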

Additional observations from a re-analysis of the deposited data

Results flagged for a closer look

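Single libraries lay far from the other 7 of their nucleus in 19 of 263 groups of 8 values checked, where chance gives about 1 in 20. Of these, 7 came from C57n:C3Hmt replicate 1: it was highest of the C57 nucleus for Mmp12 (26.7 CPM), Tph2 (18.5 CPM), Trem2 (10.4 CPM) and Ear11 (2.0 CPM), and lowest for Cidea (20 CPM), Rgs2 (14.3 CPM) and Elovl3 (0.136 CPM). Among the other C57 nucleus libraries, C57n:C57mt replicate 2 was highest for Hal (1.06 CPM) and for the summed mammary and skin epithelium genes (108.9 CPM), C57n:C3Hmt replicate 2 for Amdhd1 (0.181 CPM), C57n:C3Hmt replicate 3 for Rsad2 (31.3 CPM), and C57n:C57mt replicate 3 for Fcer1a (1.11 CPM) and Fads1 (83.8 CPM). With the C3H nucleus, C3Hn:C3Hmt replicate 2 was highest for Tor1aip1 (3.48 CPM) and lowest for C1rb (7.25 CPM), C3Hn:C3Hmt replicate 3 was lowest for Mmp12 (40.8 CPM) and Rsad2 (3.81 CPM), and C3Hn:C57mt replicate 3 was highest for Fads2 (8.5 CPM) and C3Hn:C57mt replicate 2 for Nr4a2 (2.67 CPM).

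The nuclear effect differed by test between chow and HFD in 121 genes and between iWAT and epididymal fat on chow in 25. As chow minus HFD on the log2 scale, the named differences were 6.16 for Ngp, 5.28 for Elovl3, 3.75 for A530050D06Rik, 3.55 for A530023O14Rik, -1.31 for Psat1, -2.32 for Cyp2e1 and -5.66 for Ear11. As iWAT minus epididymal fat they were 3.91 for Wif1, 3.5 for 1300002K09Rik, 3.47 for Rgs1, 2.7 for Rgs2 and 2.66 for Tpsab1.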

How the results depend on the processing

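For the nuclear effect in chow iWAT, RLE factors, no filter, covariates, GC content and length offsets, and DESeq2 gave 2865 to 3901 called genes; the 30-library fit gave 1977, at least 2-fold change 941, the fits without muscle-rich and without lymphocyte-poor libraries 6043 and 4743, and leaving out 1 library 2205 to 5139. With C57 mtDNA, DESeq2 called 1494, the fit without lymphocyte-poor libraries 1509 and leaving out 1 library 625 to 1458. With C3H mtDNA, DESeq2 called 2250, the fits without muscle-rich and lymphocyte-poor libraries 5904 and 3385, and leaving out 1 library 792 to 4067. The test of the nuclear effect between mtDNA backgrounds called 0 under every setting run, leaving out 1 library included (0 to 0). On HFD, DESeq2 called 2178 and leaving out 1 library 815 to 1898. In epididymal fat, DESeq2 called 2671, the fit without 5 epididymis-rich libraries 2641 and leaving out 1 library 500 to 2064. In muscle, leaving out 1 library gave 4215 to 4555. Between diets, DESeq2 called 1444, no filter 51 and leaving out 1 library 9 to 2223. Between depots, DESeq2 called 512, no filter 11, the voom fit with the animal as a block (consensus correlation 0.205) 6 and leaving out 1 library 0 to 156. The cause of these shifts was not tested. Genes that reversed were never called on chow: with covariates Elovl3 (-0.12), Naip1 (-0.68) and Jarid1d (-0.0020); without muscle-rich and lymphocyte-poor libraries Rgs1 (0.19 and 0.0796); and leaving out 1 library Rgs1 (-0.25 to 0.095) and Naip1 (-0.15 to 0.21). The nuclei were compared unpaired, since each animal has 1 nuclear genome; the depot comparison is the one where 8 animals are shared, and its paired fit is the voom fit above.

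Depth of 21.2 M to 26.3 M counts puts the floor of 3 counts used for bounds at about 0.13 CPM. Lane and nucleus coincide, mm9 is 1 of the 2 strains, and bulk tissue mixes cells.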

Other observations

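Signals and hormone-related genes of fat gave further values. Rarres2, which encodes the adipokine chemerin, measured 731 to 1263 CPM with the C3H nucleus and 278.8 to 709.9 CPM with the C57 nucleus, a log2 fold change of -1.09 ± 0.19 (SE, adjusted p = 0.00101) with no overlap; on HFD it was at -0.08 (adjusted p = 0.836). Among 21 tested adipokine and fat expansion genes 2 were higher with the C57 nucleus and 3 with the C3H nucleus, against 18.4% called of all genes. Pbef1, the enzyme and adipokine visfatin, was at 0.37 ± 0.08 (adjusted p = 0.00657). Of 21 tested insulin signalling genes 2 were higher with the C57 nucleus and 1 with the C3H nucleus, a share below the 18.4% of all genes. They were hexokinase Hk2 (0.88 ± 0.23, adjusted p = 0.0151), the insulin-regulated glucose carrier Slc2a4 (0.50 ± 0.15, adjusted p = 0.0375) and the kinase Pdpk1 (-0.33 ± 0.07, adjusted p = 0.00283).

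Retinoid and alcohol metabolism had 4 of 22 tested members higher with the C57 nucleus and 5 with the C3H nucleus, against 8.91% and 9.53% of all genes. Adh1, an alcohol and retinol dehydrogenase, measured 123.1 to 176.1 CPM with the C57 nucleus and 67.9 to 98.5 CPM with the C3H nucleus (0.84 ± 0.10, adjusted p = 2.99e-05), and Rdh10, a retinol dehydrogenase, 8.20 to 11.0 against 6.44 to 7.57 CPM (0.52 ± 0.08, adjusted p = 0.000464), both with no overlap. Of 20 mitochondrial stress response genes 2 were called, both with the C3H nucleus higher: Psat1, of serine synthesis (-0.88 ± 0.22, adjusted p = 0.0138), and Sesn2, a stress-induced regulator of mTORC1 (-0.73 ± 0.19, adjusted p = 0.0149). Of 21 immediate early genes the transcription factors Egr3 (1.30 ± 0.34, adjusted p = 0.0152) and Nr4a2 (1.36 ± 0.36, adjusted p = 0.0183) were called higher with the C57 nucleus. Of 18 endothelial genes Pecam1 (0.28 ± 0.07, adjusted p = 0.0166) and Emcn (0.40 ± 0.12, adjusted p = 0.0336) were called higher with the C57 nucleus. The shares called in the stress response, immediate early and endothelial lists lay below the 18.4% of all genes.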
